A study of Mus musculus with 9 samples.

Results

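The genes described here are 10 components of heterochromatin and HUSH silencing in the T15 cell line: Trim28, Setdb1, Atf7ip, Mphosph8, Pphln1, Morc2a, Morc3, Suv39h1, Suv39h2 and Cbx5. They were picked by name from 35288 listed genes, by a rule that uses no measured value, although results of these data were already known when the list was drawn up. Each matched 1 Ensembl identifier, and all 10 were among the 13697 genes that passed the filter on low counts. The RNA-seq data comprised 9 libraries, 3 of control cells, 3 of cells given SAHA (1 µM, 72 h) and 3 of cells re-expressing Smarcb1 (Smarcb1-RE). T15 is derived from a Smarcb1-negative mouse model of peripheral T-cell lymphoma (PTCL), so that all 3 groups share the loss of the endogenous gene. SAHA (vorinostat) blocks histone deacetylases. At the dose used for these libraries, the study reports strong apoptosis of the cell line, with most cells dead. Whether the RNA of the SAHA libraries came from dying or from surviving cells is not stated. The part of cell death in the SAHA values was not tested. The re-expressing cells had been transduced with lentivirus for Smarcb1 in the plasmid pInd20, were selected with G418 and received doxycycline (Dox, 0.5 µg/µl, 72 h). The study calls the control cells untreated, whereas the labels name both a vehicle and a control plasmid without saying which, if any, the 3 control libraries received. Therefore effects of transduction, G418 and Dox cannot be told apart from those of Smarcb1, nor an effect of a vehicle from that of SAHA. Several stable clones were established in the study, and the labels do not say whether the 3 Smarcb1-RE libraries come from 1 clone.

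Methylation of lysine 9 of histone H3 (H3K9) marks silent chromatin. KRAB zinc finger proteins bring TRIM28 to DNA, and TRIM28 recruits the methyltransferase SETDB1 with its partner ATF7IP, mainly at retroelements. The HUSH complex, with its subunits MPP8 (encoded by Mphosph8), periphilin (Pphln1) and TASOR, binds methylated H3K9 and works with MORC2 and SETDB1 to silence young LINE-1 elements, retrogenes and integrated retroviral vectors. SUV39H1 and SUV39H2 trimethylate H3K9 at pericentromeric repeats, where HP1α (Cbx5) binds the mark. In T cells these enzymes are known to keep genes of alternative lineages silent.

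Smarcb1 itself had between 2 and 8 counts in control libraries, between 3 and 13 in SAHA libraries and between 142 and 151 in Smarcb1-RE libraries, which matches the labels. Library totals ranged from 20900477 to 24941494 estimated counts. Of 11 T-cell markers, 8 passed the filter, among them Cd3d, Cd3e, Cd3g, Cd8a and Cd8b1, whereas Cd2 and Cd5 had at most 3 counts in every library and Thy1 stayed at or below 0.265 CPM (the usual count scaled to library size, here with TMM normalization between libraries). The summed level of the T-cell markers was between 3378 and 3487 CPM in control, between 3832 and 3878 CPM in SAHA and between 3438 and 3512 CPM in Smarcb1-RE. Of 6 myeloid markers none passed the filter. The sum of 6 stromal markers, almost all of it Pecam1, was between 147 and 156 CPM in control, between 111 and 125 CPM in SAHA and between 129 and 131 CPM in Smarcb1-RE, and Col3a1 and Pdgfrb had at most 3 counts. The summed level of 6 B-cell markers, almost all of it Ebf1, was between 92.7 and 95.9 CPM in control, between 101 and 112 CPM in SAHA and between 155 and 163 CPM in Smarcb1-RE, with Cd79b at no more than 3 counts, and the part of these marker sums in the results was not tested. In such bulk RNA, fewer cells of a type and less RNA per cell cannot be told apart. Control replicate 1 stood apart from the other control libraries, with a chi-square per gene of 12.9 and 14.4 against 3.54 between replicates 2 and 3. For the silencing genes against control, both values are given where its removal changed a call or moved a log2 fold change by over 1.5 times. For single genes of the other lists, values without it are not given.

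Of the 10 silencing genes, 7 fell and 3 rose in Smarcb1-RE, and 5 fell and 1 rose in SAHA. In Smarcb1-RE cells the decreases covered Suv39h1, Suv39h2, Trim28, Pphln1, Cbx5, Setdb1 and Mphosph8, whereas Morc2a, Morc3 and Atf7ip rose. In SAHA-treated cells Suv39h2, Cbx5, Trim28, Suv39h1 and Mphosph8 fell and Atf7ip rose. The changes were moderate, and no gene changed by a log2 fold change of 1 or more in either comparison. Suv39h1 in Smarcb1-RE changed most and fell by 47.0%. Calls rest on edgeR's quasi-likelihood test with Benjamini-Hochberg adjustment and a threshold of 0.05. So many genes responded that calls were common in general: 10 of the 10 genes were called in Smarcb1-RE, where 77.8% of all tested genes were, and 6 of 10 in SAHA, where 66.9% were. By direction, 38.6% were called lower and 39.2% higher in Smarcb1-RE against control, and 34.3% lower and 32.6% higher in SAHA against control. The median log2 fold change of the 10 genes was -0.45 in Smarcb1-RE and -0.14 in SAHA, against 0.01 and 0.00 over all tested genes. Both comparisons use the same control libraries. Values by library are plotted for each gene.

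**Figure D1:**
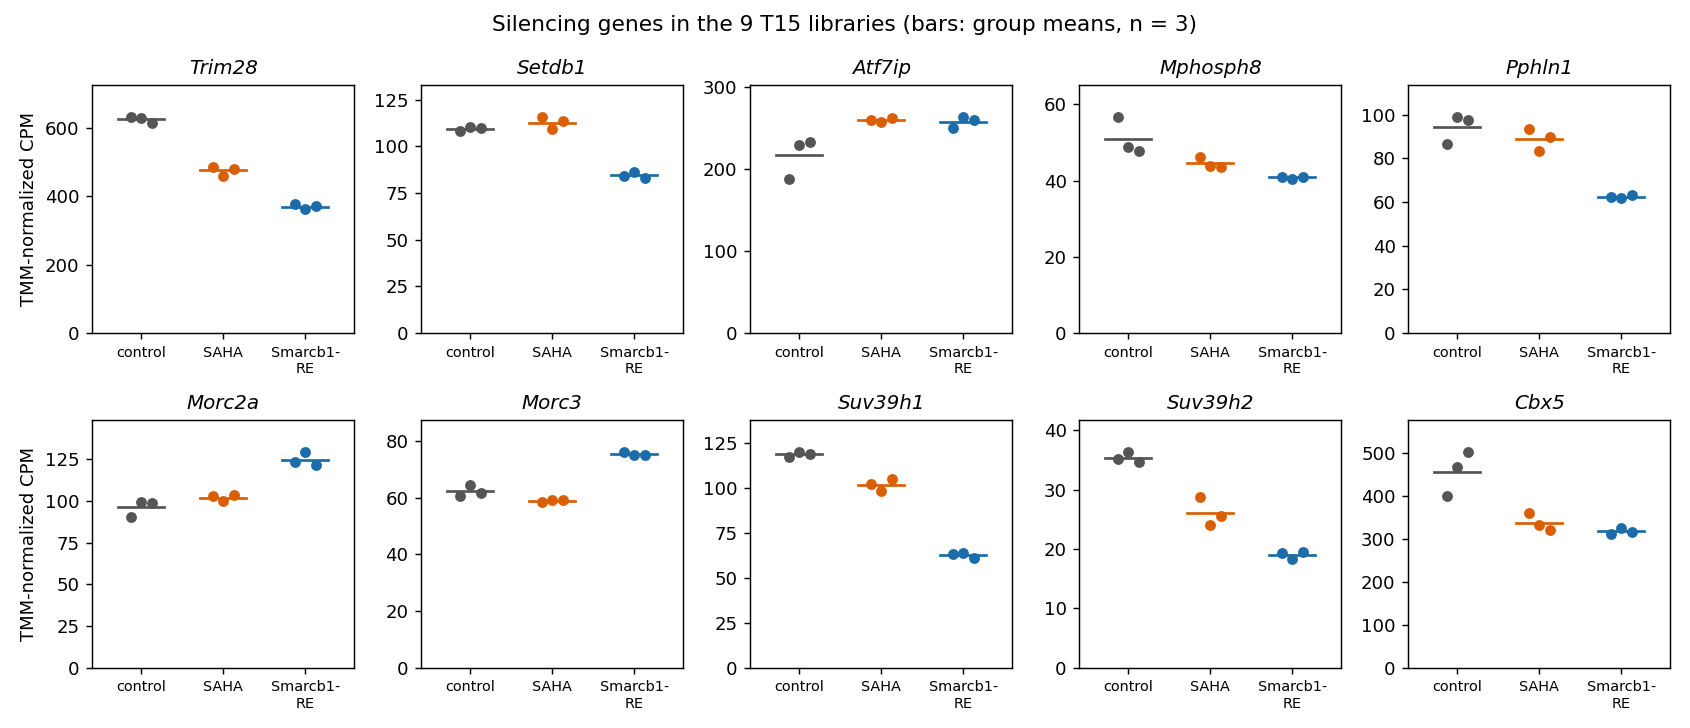
TMM-normalized CPM (y axis, from 0, a separate scale per gene) of the 10 silencing genes in control, SAHA and Smarcb1-RE libraries. Points are single libraries and bars are group means (n = 3). For 7 genes all Smarcb1-RE points lie below all control points, and for Atf7ip, Morc2a and Morc3 they lie above.

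The first set of genes acts at the TRIM28-SETDB1 axis. Trim28, the corepressor that bridges zinc finger proteins and chromatin enzymes, had 631, 630.0 and 614 CPM in the control libraries, 486, 459.8 and 481 CPM in SAHA and 377, 363 and 370.1 CPM in Smarcb1-RE. The 3 groups formed 3 steps that did not overlap. The log2 fold change was -0.39 (standard error 0.04, adjusted p = 1.32e-06, edgeR) in SAHA and -0.76 (standard error 0.04, adjusted p = 1.71e-09) in Smarcb1-RE, so that Trim28 fell by 23.9% and by 40.8%. Setdb1, which encodes the H3K9 methyltransferase itself, had 108, 110.2 and 110.0 CPM in control, 116, 109 and 114 CPM in SAHA and 83.9, 86.5 and 83.0 CPM in Smarcb1-RE. SAHA and control libraries overlapped (log2 fold change 0.04, standard error 0.04, adjusted p = 0.346, edgeR), while all Smarcb1-RE libraries were lower (log2 fold change -0.37, standard error 0.04, adjusted p = 1.51e-06). Atf7ip, whose product stabilizes SETDB1 and holds it in the nucleus, moved the other way. It had 188, 229 and 233 CPM in control, 260.1, 258 and 263 CPM in SAHA and 251, 264 and 260.2 CPM in Smarcb1-RE. All treated libraries lay above all control libraries, with control replicate 1 the lowest of the 9. The log2 fold changes were 0.26 (standard error 0.07, adjusted p = 0.00357, edgeR) and 0.25 (standard error 0.07, adjusted p = 0.00374). Without control replicate 1 they were 0.17 and 0.15, and both remained past the threshold. On the per-length scale explained below, the ratio of Atf7ip to Setdb1 was 0.654 ± 0.0696 (SD, n = 3) in control, 0.763 ± 0.0191 in SAHA and 1.01 ± 0.0243 in Smarcb1-RE, with no overlap between the groups. The size of this ratio rests on the long merged exons of Atf7ip: per median transcript length, the control levels were 134.7 for Atf7ip and 23.2 for Setdb1. The ratio of Trim28 to Setdb1 was 9.41 ± 0.198 in control, 6.95 ± 0.0221 in SAHA and 7.22 ± 0.270 in Smarcb1-RE, where all treated libraries lay below all control libraries and the treatments overlapped.

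HUSH subunits and MORC genes differed in direction. Mphosph8, which encodes the chromodomain subunit that reads methylated H3K9, had 56.6, 48.7 and 47.7 CPM in control, 46.3, 43.9 and 43.5 CPM in SAHA and 41.0, 40.4 and 41.0 CPM in Smarcb1-RE. The 3 groups did not overlap, although control replicate 1 was the highest of all and SAHA differed little from Smarcb1-RE. The log2 fold change was -0.19 (standard error 0.06, adjusted p = 0.0136, edgeR) in SAHA and -0.32 (standard error 0.06, adjusted p = 0.000374) in Smarcb1-RE. Without control replicate 1 these values were -0.11 and -0.25, and without SAHA replicate 3 the SAHA value of -0.18 no longer passed (adjusted p = 0.0512). Pphln1, which encodes the periphilin subunit, had 86.7, 98.8 and 97.6 CPM in control, 93.2, 83.1 and 89.6 CPM in SAHA and 62.1, 61.9 and 63.1 CPM in Smarcb1-RE. Control and SAHA overlapped, and Smarcb1-RE was clearly lower (log2 fold change -0.60, standard error 0.06, adjusted p = 7.18e-07, edgeR). The SAHA value was -0.09 (adjusted p = 0.175), and without control replicate 1 it was -0.15 and passed (adjusted p = 0.0108).

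Morc2a, which encodes the ATPase that HUSH recruits, had 90.3, 99.7 and 98.6 CPM in control, 103, 99.8 and 103 CPM in SAHA and 123, 129 and 122 CPM in Smarcb1-RE. The lowest SAHA library exceeded the highest control library only slightly, and this difference did not pass (log2 fold change 0.09, adjusted p = 0.12, edgeR; 0.04 and adjusted p = 0.359 without control replicate 1). In Smarcb1-RE, Morc2a rose by 29.7% (log2 fold change 0.38, standard error 0.05, adjusted p = 7.46e-06). Morc3, a related ATPase of nuclear bodies that also takes part in retroelement silencing, had 60.5, 64.5 and 61.7 CPM in control, 58.5, 59.2 and 59.2 CPM in SAHA and 76.1, 75.2 and 75.2 CPM in Smarcb1-RE. The increase in Smarcb1-RE was 21.4% (log2 fold change 0.28, standard error 0.04, adjusted p = 2.54e-05, edgeR). The SAHA libraries all lay below the control libraries, with a log2 fold change of -0.08 (adjusted p = 0.105), which became -0.10 (adjusted p = 0.0305) without control replicate 1. Over all 10 genes, groups that did not overlap were found for 10 of 10 genes in Smarcb1-RE against control (7 lower and 3 higher) and for 8 of 10 in SAHA against control (6 lower and 2 higher). Over all tested genes, 39.1% were lower and 40.4% higher without overlap in the first comparison, and 34.9% and 33.8% in the second. Morc2b, the closest paralog of Morc2a, was at 0 in all 9 libraries.

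The SUV39H enzymes and HP1α formed the third set. Suv39h1 had 117, 119.7 and 119 CPM in control, 102, 98.0 and 104 CPM in SAHA and 63.2, 64.0 and 61.1 CPM in Smarcb1-RE. Suv39h2 had 35.2, 36.4 and 34.6 CPM in control, 28.8, 24.0 and 25.6 CPM in SAHA and 19.3, 18.4 and 19.5 CPM in Smarcb1-RE. For both enzymes the 3 groups were fully separated, in the order control, SAHA, Smarcb1-RE. The log2 fold change of Suv39h1 was -0.22 (standard error 0.04, adjusted p = 0.000248, edgeR) in SAHA and -0.92 (standard error 0.04, adjusted p = 5.61e-10) in Smarcb1-RE. That of Suv39h2 was -0.44 (standard error 0.06, adjusted p = 5.69e-05, edgeR) and -0.89 (standard error 0.07, adjusted p = 6.19e-08). The ratio of Suv39h1 to Suv39h2 per length was 2.80 ± 0.0580 (SD, n = 3) in control, 3.26 ± 0.263 in SAHA and 2.76 ± 0.144 in Smarcb1-RE. The range in Smarcb1-RE overlapped that of control, and all SAHA libraries lay above both. Cbx5 had 401, 466 and 502 CPM in control, 361, 332 and 320.5 CPM in SAHA and 311, 325 and 317 CPM in Smarcb1-RE. Every treated library was below every control library, and SAHA and Smarcb1-RE overlapped. The log2 fold changes were -0.43 (standard error 0.07, adjusted p = 0.000136, edgeR) in SAHA and -0.52 (standard error 0.07, adjusted p = 1.9e-05) in Smarcb1-RE. The other HP1 genes did not follow in every respect. Cbx3 (HP1γ) fell in SAHA (log2 fold change -0.27, adjusted p = 2.36e-05, edgeR) and in Smarcb1-RE (-0.62, adjusted p = 6.56e-09). Cbx1 (HP1β) fell in Smarcb1-RE (-0.28, adjusted p = 4.59e-05, edgeR), and its SAHA value was 0.05 (adjusted p = 0.277).

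**Figure D2:**
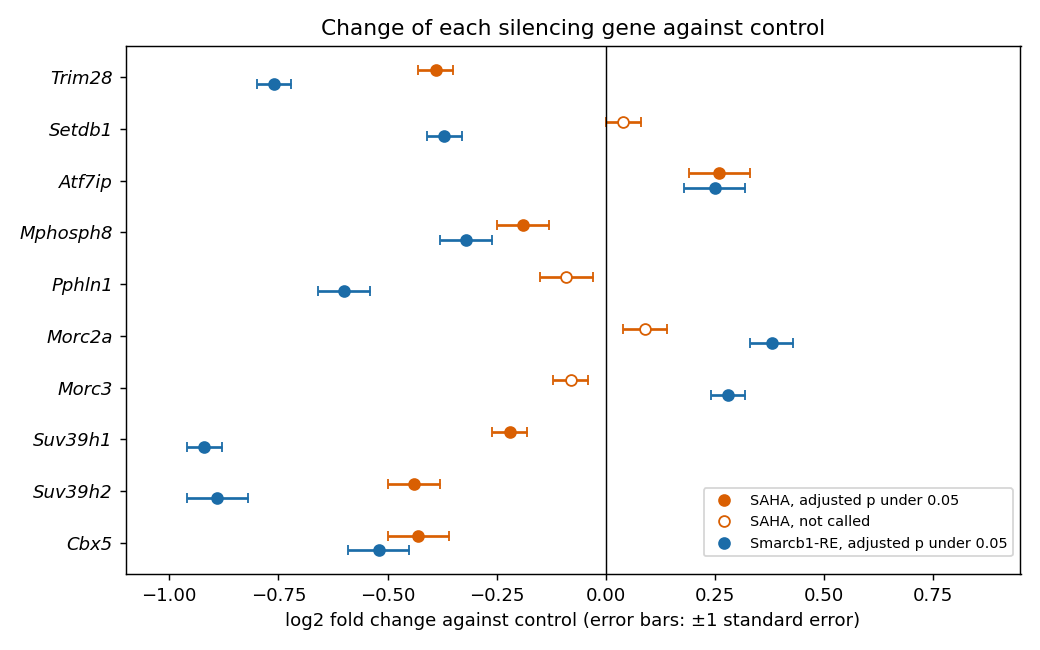
Log2 fold change of each silencing gene against control (x axis) in SAHA and in Smarcb1-RE, with error bars of 1 standard error; filled points passed an adjusted p-value under 0.05 and open points did not. The Smarcb1-RE points of Suv39h1, Suv39h2 and Trim28 lie farthest to the left, and only Atf7ip lies to the right of 0 in both comparisons with filled points.

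Promoter sequence was examined because several of these genes moved together. RefSeq promoters (GRCm38.p6) were found for all 10 genes, and the 250 bases before each of 14 annotated starts were searched on both strands. Shown are the windows of Suv39h1 (chrX:8074761-8075010, minus strand), Cbx5 (chr15:103239853-103240102, minus strand) and Trim28 (chr7:13023902-13024151, plus strand), which fell in both comparisons, and of Morc3 (chr16:93831871-93832120, plus strand), which rose in Smarcb1-RE. Each is written 5′ to 3′ on the strand of its gene and overlaps no annotated exon, and capitals mark the CCAAT box or its complement ATTGG, the motif bound by NF-Y.
Suv39h1: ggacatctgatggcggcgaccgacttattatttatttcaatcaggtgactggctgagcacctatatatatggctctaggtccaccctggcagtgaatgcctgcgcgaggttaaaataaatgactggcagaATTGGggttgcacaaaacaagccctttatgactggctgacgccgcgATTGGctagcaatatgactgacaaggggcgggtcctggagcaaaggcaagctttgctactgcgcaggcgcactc
Cbx5: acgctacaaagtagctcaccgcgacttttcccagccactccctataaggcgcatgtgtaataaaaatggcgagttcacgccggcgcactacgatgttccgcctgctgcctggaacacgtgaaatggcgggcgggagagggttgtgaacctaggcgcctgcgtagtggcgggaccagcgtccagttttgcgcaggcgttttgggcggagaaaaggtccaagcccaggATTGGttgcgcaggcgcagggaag
Trim28: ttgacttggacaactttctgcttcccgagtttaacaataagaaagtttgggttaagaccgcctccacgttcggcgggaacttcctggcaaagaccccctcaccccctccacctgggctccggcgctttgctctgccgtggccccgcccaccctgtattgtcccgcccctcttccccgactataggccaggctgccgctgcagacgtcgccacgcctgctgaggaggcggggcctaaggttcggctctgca
Morc3: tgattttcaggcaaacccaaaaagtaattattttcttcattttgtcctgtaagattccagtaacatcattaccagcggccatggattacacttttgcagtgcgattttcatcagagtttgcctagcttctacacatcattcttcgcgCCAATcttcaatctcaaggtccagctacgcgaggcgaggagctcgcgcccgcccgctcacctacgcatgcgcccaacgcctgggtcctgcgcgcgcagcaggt
The Suv39h1 window held 2 CCAAT boxes, those of Cbx5 and Morc3 held 1 each and that of Trim28 held none. CCAAT was present before a start of 7 of the 10 genes (Setdb1, Atf7ip, Mphosph8, Morc2a, Morc3, Suv39h1 and Cbx5) or in 7 of their 14 promoters, and in 33.8% of all 32851 promoters and 36.1% of the 12427 promoters of tested genes. Genes that fell and genes that rose were thus both among the matches. The words TTTGGCGC, TTTCGCGC and TTTCCCGC, forms of the E2F motif, were found in none of the 14 windows, against 1.53% of all promoters and 2.83% of those of tested genes. GGGCGG, bound by SP and KLF factors, was found in 11 of the 14 promoters, of all genes except Pphln1 (32.7% of all promoters and 56.4% of those of tested genes). CCGGAAG, an ETS motif, was found in 2 of the 14, those of Setdb1 and Pphln1 (6.91% and 13.6%). No match of a motif overlapped one of another motif, and 2 GGGCGG matches overlapped each other in Morc2a. These are matches of letters in a fixed window and not measured binding sites.

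To compare levels between genes, counts were divided by merged exon length and scaled to the same sum in every library, a TPM-like value without further normalization. In control cells, Trim28 stood at 393 ± 15.2 (SD, n = 3) per-length units and Cbx5 at 133 ± 21.1. The remaining genes were much closer together, from Suv39h1 at 58.8 ± 3.40 and Pphln1 at 54.4 ± 6.26 through Setdb1 at 41.8 ± 2.39, Morc2a at 39.3 ± 3.87, Mphosph8 at 37.1 ± 1.70, Morc3 at 30.0 ± 2.13 and Atf7ip at 27.5 ± 4.38 to Suv39h2 at 21.0 ± 1.12. Within this order, the ranges of Suv39h1 and Pphln1, of Setdb1 and Morc2a, of Morc2a and Mphosph8 and of Morc3 and Atf7ip overlapped. In Smarcb1-RE, Trim28 (256 ± 1.67) and Cbx5 (101 ± 3.51) kept the first places and Suv39h2 (12.4 ± 0.294) the last. Morc2a moved from rank 6 to rank 3 (55.8 ± 2.38), Morc3 from 8 to 4 (39.9 ± 0.292) and Atf7ip from 9 to 6 (35.8 ± 1.34), while Suv39h1 moved from 3 to 8 (34.2 ± 0.993). Morc3 and Pphln1 overlapped there. Atf7ip, Setdb1 (35.4 ± 1.13) and Suv39h1 all overlapped each other, so that ranks 6 to 8 were not separated. In SAHA the order was close to that of control, with Trim28 at 299.7 ± 10.6, Cbx5 at 98.2 ± 6.85 and Suv39h2 at 15.5 ± 1.59. These levels and ranks depend on the annotated length. With the median transcript length in its place, Trim28 stayed first and Suv39h2 last in all 3 groups, but other places changed. That median runs over all annotated transcripts, short ones included. It was 617 bases for Mphosph8, 814 for Trim28 and 832 for Morc2a, against 2778 for Suv39h1 and 4597 for Setdb1. Atf7ip, whose merged exons span 20726 bases, moved from rank 9 to rank 3 in control, Suv39h1 from 3 to 8 and Setdb1 from 5 to 9. By that measure Suv39h1 was above only Setdb1 and Suv39h2 in Smarcb1-RE as well (means of 25.2, 20.5 and 9.46), so its lower place there appears only with merged exons. Cbx5 was second in control only, with means of 138 in SAHA and 147 in Smarcb1-RE, where Atf7ip had 163 and 184 and Morc2a had 121 and 167.

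**Figure D3:**
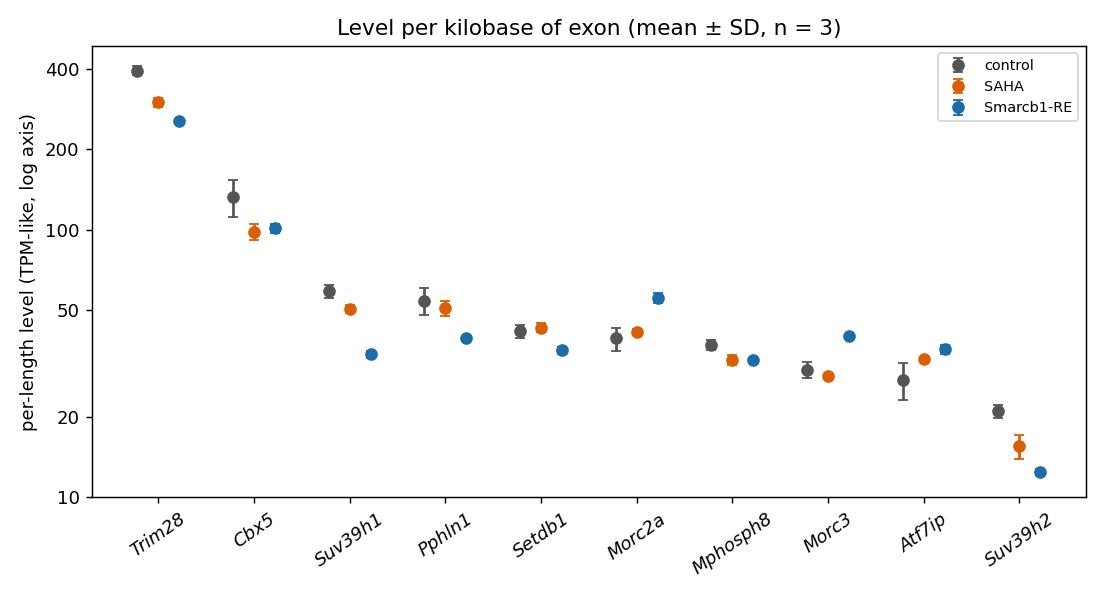
Per-length level (TPM-like, log axis) of the 10 genes, ordered by their level in control; points are means and bars are SD (n = 3). With merged exon lengths, Trim28 and Cbx5 lie above the other genes in all 3 groups and Suv39h2 lies lowest, and Morc2a, Morc3 and Atf7ip are higher in Smarcb1-RE than in control.

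The direct comparison tested which of the genes responded differently to the treatments. Smarcb1-RE was lower than SAHA for 5 genes and higher for 2 (74.6% of all tested genes were called), where 36.8% of tested genes were lower and 37.7% higher. Groups did not overlap for 6 genes lower and 2 higher, against 39.2% and 40.7% over all tested genes. The lower genes were Suv39h1 (log2 fold change -0.69, standard error 0.04, adjusted p = 7.61e-09, edgeR), Pphln1 (-0.51, standard error 0.06, adjusted p = 3.91e-06), Suv39h2 (-0.46, standard error 0.07, adjusted p = 4.85e-05), Setdb1 (-0.42, standard error 0.04, adjusted p = 6.04e-07) and Trim28 (-0.36, standard error 0.04, adjusted p = 1.82e-06). Morc3 (0.36, standard error 0.04, adjusted p = 3.06e-06, edgeR) and Morc2a (0.29, standard error 0.05, adjusted p = 8.25e-05) were higher. Atf7ip (-0.01, standard error 0.07, adjusted p = 0.886, edgeR), Cbx5 (-0.09, standard error 0.07, adjusted p = 0.273) and Mphosph8 (-0.13, standard error 0.06, adjusted p = 0.0813) did not pass, and the sign of each of these 3 values changed when only library totals were used for scaling. Mphosph8 passed without control replicate 1 (adjusted p = 0.00619) and without control replicate 3 (adjusted p = 0.0413), which enter this comparison only through the shared estimate of the spread and the scaling, and also in a fit of SAHA and Smarcb1-RE alone (adjusted p = 0.0099).

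Other genes of the pathway, grouped by their known role, moved in both directions. As a background for the counts, 39.2% of all tested genes rose and 38.6% fell in Smarcb1-RE, and 32.6% rose and 34.3% fell in SAHA. Of 13 HUSH and SETDB1 partner genes, 11 were tested. In Smarcb1-RE, 6 rose and 4 fell (median log2 fold change 0.37), and in SAHA 7 rose and 2 fell (median 0.16). Tasor (annotated as Fam208a), the scaffold of HUSH, had 51.1, 50.05 and 56.3 CPM in control, 45.8, 46.1 and 46.7 CPM in SAHA and 79.6, 81.2 and 84.1 CPM in Smarcb1-RE. It thus fell in SAHA (log2 fold change -0.18, adjusted p = 0.00584, edgeR) and rose in Smarcb1-RE (0.64, adjusted p = 7.74e-08), where the other HUSH subunits Mphosph8 and Pphln1 fell. Atrx, a chromatin remodeler of heterochromatin, had 214 ± 13.0 CPM (SD, n = 3) in controls and rose to 368 ± 5.83 CPM in Smarcb1-RE (log2 fold change 0.78, adjusted p = 1.61e-08, edgeR), and Resf1, a factor needed for SETDB1-dependent silencing, from 134 ± 3.89 to 218 ± 2.77 CPM (0.70, adjusted p = 2.59e-09). Sumo2, a modifier in the SUMO pathway through which TRIM28 recruits SETDB1, fell there (log2 fold change -0.51, adjusted p = 3.5e-07, edgeR). In SAHA, among partners whose average log2 CPM reached 1, the largest increases were those of Daxx, a histone H3.3 chaperone (log2 fold change 0.60, adjusted p = 2.66e-07, edgeR), and of Trim24, a relative of Trim28 (0.35, adjusted p = 4.3e-05). Sumo2 fell in SAHA as well (-0.13, adjusted p = 0.0224, edgeR).

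Of 18 other H3K9 writers, readers and heterochromatin factors, 17 were tested, of which 10 fell and 5 rose in Smarcb1-RE (median log2 fold change -0.27) and 12 fell and 4 rose in SAHA (median -0.24). Hells, a remodeler that supports DNA methylation of repeats, stood at 294 ± 7.33 CPM (mean ± SD of 3 libraries) in control, 204 ± 16.9 CPM in SAHA and 175 ± 4.61 CPM in Smarcb1-RE. Uhrf1, which links H3K9 methylation to maintenance of DNA methylation, stood at 335 ± 25.4, 249 ± 9.80 and 204 ± 5.22 CPM. Their log2 fold changes in Smarcb1-RE were -0.75 and -0.71 (adjusted p = 4.78e-08 and 8.11e-08, edgeR). Smchd1, a silencer of the inactive X chromosome, rose in SAHA (log2 fold change 0.59, adjusted p = 1.01e-07, edgeR) and fell in Smarcb1-RE (-0.38, adjusted p = 3.07e-06). Its partner Lrif1, which binds HP1, rose in SAHA (0.43, adjusted p = 0.000279, edgeR) and in Smarcb1-RE (0.91, adjusted p = 1.64e-07). Prdm16, a PR-domain factor of H3K9 methylation, and Zfp644, a partner of the G9a methyltransferase, fell in SAHA (log2 fold changes -1.19 and -0.89, adjusted p = 4.83e-08 and 8.23e-08, edgeR), whereas Prdm16 rose in Smarcb1-RE (0.46, adjusted p = 4.45e-05).

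Of 11 H3K9 demethylase genes, whose products remove the mark, 8 rose and 1 fell in Smarcb1-RE (median log2 fold change 0.76), and 5 rose and 2 fell in SAHA (median 0.00). Kdm7a had 9.74, 10.7 and 12.4 CPM in control, 21.7, 22.6 and 22.4 CPM in SAHA and 79.9, 77.3 and 82.0 CPM in Smarcb1-RE. This was the largest change among the genes of the 4 pathway lists in Smarcb1-RE, with a log2 fold change of 2.86 (standard error 0.07, adjusted p = 4.72e-12, edgeR) against 1.02 (standard error 0.07, adjusted p = 1.32e-07) in SAHA. Kdm4d, a gene of low level, rose from a mean of 1.25 ± 0.206 CPM to 5.86 ± 0.678 CPM in Smarcb1-RE (log2 fold change 2.23, adjusted p = 9.66e-08, edgeR). Kdm4a, which acts on trimethylated H3K9, went in opposite directions, from 122 ± 9.17 CPM in control to 83.0 ± 2.48 CPM in SAHA and 245 ± 2.28 CPM in Smarcb1-RE. Kdm4b rose in SAHA (log2 fold change 0.84, adjusted p = 0.000202, edgeR), and Phf2 fell there (-0.37, adjusted p = 0.00206). Phf8 was the 1 demethylase gene that fell in Smarcb1-RE (-0.26, adjusted p = 0.00162, edgeR). With library totals only, no demethylase gene fell in Smarcb1-RE, and without control replicate 1, 4 fell in SAHA.

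The listed genes of KRAB zinc finger proteins, which guide TRIM28 to its sites, more often rose than fell in Smarcb1-RE. The list is a selection and not the whole family, and several of its genes share chromosome 7. Of 29 tested (32 listed), 19 rose and 4 fell in Smarcb1-RE (median log2 fold change 0.43), whereas 5 rose and 11 fell in SAHA (median -0.13). Of all tested genes, 39.2% rose in Smarcb1-RE and 34.3% fell in SAHA. With library totals only, 2 KRAB genes fell in Smarcb1-RE. Zfp30 rose from a control mean of 1.90 ± 0.303 CPM to 5.78 ± 0.181 CPM in Smarcb1-RE (log2 fold change 1.60, adjusted p = 1.86e-06, edgeR), and Zfp69 from 4.46 ± 0.737 to 8.10 ± 0.891 CPM (0.86, adjusted p = 8.99e-05). Zfp568 and Zfp961 fell in Smarcb1-RE (log2 fold changes -0.35 and -0.31, adjusted p = 0.00196 and 0.000273, edgeR). In SAHA, among KRAB genes whose average log2 CPM reached 1, the largest decreases were those of Zfp26 and Zfp809 (-0.47 and -0.46, adjusted p = 0.00057 and 4.07e-05, edgeR), the latter known for silencing of murine leukemia virus, and the largest increases those of Zkscan14 and Zfp60 (0.51 and 0.47, adjusted p = 0.000484 and 6.1e-06). Exon length moved with the fold change in Smarcb1-RE. Over 4 equal classes of genes from the shortest to the longest merged exons, the median log2 fold change was -0.22, -0.15, -0.05 and 0.12. The 10 silencing genes and the KRAB and demethylase lists had median exon lengths of 5350, 4976 and 5823 bases, in the class with a median of -0.05, and the partner list and the other H3K9 factors had 8521 and 7420 bases, in the class with 0.12. The cell cycle list had 3993 bases, in the class with -0.15. Control replicate 1, which enters both comparisons with control, also differed from the other controls by exon length. The part of length in these counts was not tested. Zinc finger genes are a family of similar sequences, and how shared reads were divided among them is not stated, so single values are uncertain.

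**Figure D4:**
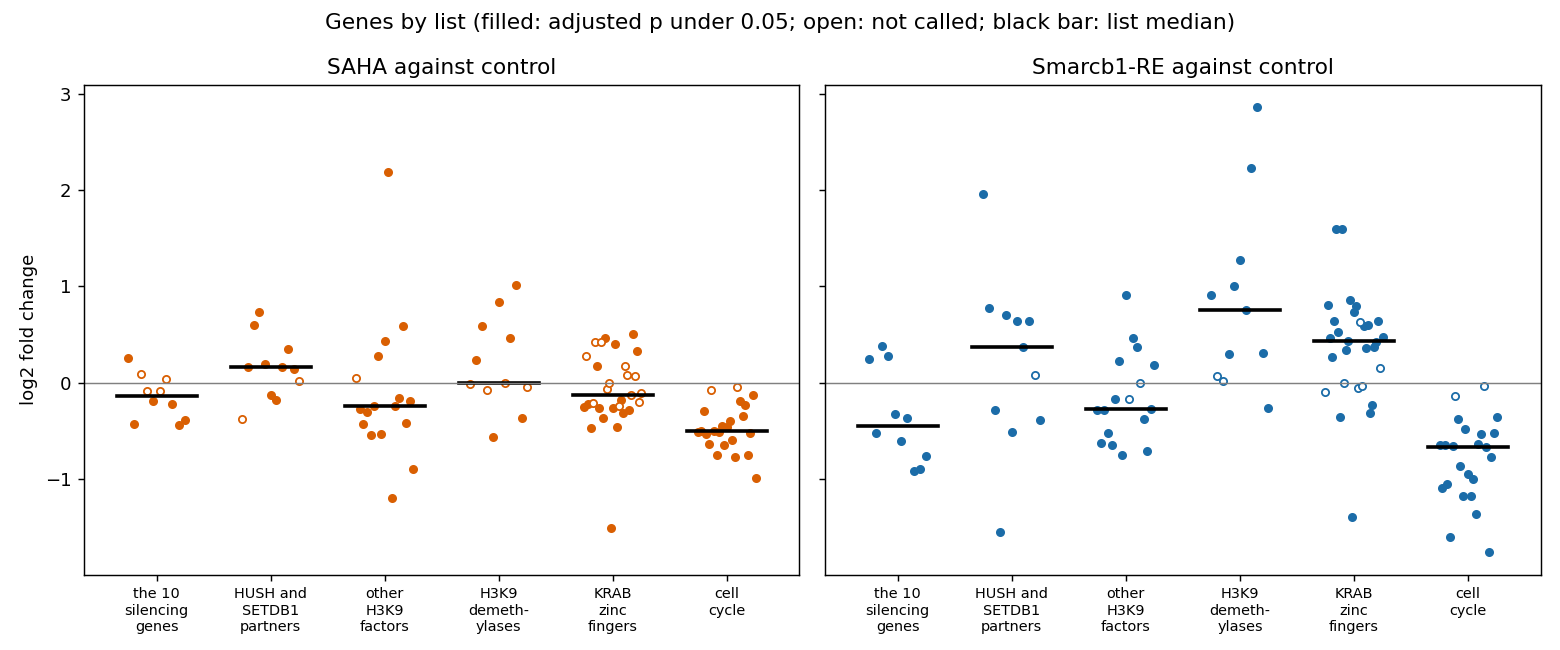
Log2 fold change (y axis) of the 10 silencing genes and of the genes of 5 lists, for SAHA against control and Smarcb1-RE against control; each point is a gene, filled where the adjusted p-value was under 0.05, and black bars are list medians. In Smarcb1-RE the demethylase (0.76) and KRAB (0.43) medians lie above 0, whereas those of the silencing genes (-0.45) and of the cell cycle genes (-0.67) lie below.

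Cell cycle genes fell in both comparisons with control. Of 23 listed replication and mitosis genes, 21 fell and 0 rose in SAHA by edgeR (median log2 fold change -0.50), and 21 fell and 0 rose in Smarcb1-RE (median -0.67). Over all tested genes, 34.3% fell and 32.6% rose in SAHA, and 38.6% fell and 39.2% rose in Smarcb1-RE. DESeq2 also called 0 of the 23 listed genes higher, and 0 of them were higher at an unadjusted p under 0.05. Their summed level was between 6705 and 6869.9 CPM in control, between 5212 and 5439 CPM in SAHA and between 4192 and 4199.8 CPM in Smarcb1-RE. Mcm5 and Tyms fell in SAHA (log2 fold changes -0.77 and -0.99, adjusted p = 1.74e-08 and 5.94e-09, edgeR), and Plk1 and Ccnb1 fell most in Smarcb1-RE (-1.76 and -1.60, adjusted p = 4.19e-12 and 1.49e-11). The 2 genes not called in Smarcb1-RE were Mki67 (log2 fold change -0.03, adjusted p = 0.651, edgeR) and Ccne2 (-0.14, adjusted p = 0.0746). The study reports slower growth after Smarcb1 re-expression, without an effect on viability or on the cell cycle. The part of proliferation, or in SAHA of cell death, in the decrease of Suv39h1, Suv39h2, Cbx5 and Trim28 was not tested. Across the 9 libraries, the genes whose log2 CPM followed Suv39h1 most closely were Brd2, Syt17 and St6galnac4 (Pearson's r = 0.9986, 0.9982 and 0.9976). This is a description over 3 groups of 3 libraries that share their treatment, and 1157 genes reached an r of at least 0.95. Syt17 was a gene of low level, with means of 1.95 CPM in control, 1.26 in SAHA and 0.116 in Smarcb1-RE. The last is below the level of 3 counts in those libraries (0.137 to 0.144 CPM), so its match is uncertain.

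Several points of annotation limit single values. The estimates of Trim28, Mphosph8, Morc3 and Suv39h2 were within 0.002 of a whole number in all 9 libraries. Those of Setdb1, Atf7ip, Pphln1, Morc2a and Suv39h1 were not whole in any library, and that of Cbx5 was not whole in 1 library, so reads of these genes were partly divided with other transcripts. Exons of 6 of the genes overlap those of a gene on the opposite strand. The longest overlaps are those of Suv39h1 with Gm14820 (600 bases), Morc2a with Tug1 (483 bases), Mphosph8 with Gm16973 (300 bases), Setdb1 with Gm37500 (174 bases) and Suv39h2 with Dclre1c (147 bases). Dclre1c had 305 to 609 counts. Gm14820, Tug1, Gm16973 and Gm37500 are not among the listed genes, so their levels could not be checked. The kit keeps strand information, but whether strand was used in counting is not stated.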

How the data were processed

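RNA-seq of T15 cells was analysed in 9 libraries of 3 groups, taken from the sample titles. The authors deposited estimated counts per Ensembl gene, neither normalized nor pooled. The submitters' processing notes name Salmon 0.14.1, DESeq2 1.22.2, FastQC 0.11.8, MultiQC 1.7 and the build GRCm38, without their roles; the transcript annotation is not given in the sources used here. Of the identifiers, 99.46% were found in GENCODE M21 (GRCm38), which gave names, coordinates and exon lengths. Division of shared reads among paralogs by the quantification affects their values.

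Estimates were rounded to whole numbers. A single fit to the 3 groups was made in R 4.3.3 with edgeR 4.0.16 (TMM, filterByExpr with a minimum count of 10, quasi-likelihood test, Benjamini-Hochberg adjustment over 13697 genes). CPM are TMM-normalized. Standard errors were taken as |log2 fold change|/√F. Within groups, replicates differed by more than sampling noise (chi-square per gene from 2.07 to 14.4). The study names 3 biological replicates; nothing further says how they were kept apart, so p-values measure the spread between these samples. The smallest count among the 10 genes was 416. A count of 0 allows up to 3 counts, or 0.12 to 0.144 CPM, by counting error only.

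Members and lists were chosen with earlier results of these data known. Named genes are the 10 members, the paralogs Morc2b, Cbx1 and Cbx3, for each list, comparison with control and direction the 2 called genes with the largest change (minimum average log2 CPM 1), and the 3 genes most correlated with the member that changed most in Smarcb1-RE. The decrease of Smchd1 in Smarcb1-RE was added after its values were seen. Alternatives were DESeq2 1.42.0, RLE factors, library totals, other filters, separate fits, a replicate block, stricter thresholds, thinned counts and leaving out each library. For the lists, DESeq2, both scalings, the block and the fit without control replicate 1 were added after seeing the data. Set tests were not run. Some genes that the rule names are not reported here.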

Additional observations from a re-analysis of the deposited data

How the results depend on the processing

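Of 540 combinations of a silencing gene, a comparison and an alternative, 528 kept direction and side of the threshold, 2 no longer passed, 6 newly passed and 4 changed sign. All 180 combinations for Smarcb1-RE against control were among the first. The sign changes were in Smarcb1-RE against SAHA, and none of these values passed. With library totals only, Atf7ip was 0.15, Mphosph8 0.03 and Cbx5 0.07. That setting leaves out TMM factors of 1.0705 to 1.0816 in Smarcb1-RE and 0.9604 to 0.9673 in SAHA, which raises the values of this comparison in general. With at least 10 counts in every library Atf7ip was 0.01, and the cause of that change was not tested. Scaled by library totals, all genes together had a median of 0.17 in place of 0.01 in Smarcb1-RE against control, and higher calls made up 61.0% in place of 50.4%. In Smarcb1-RE against SAHA the median was 0.18 in place of 0.02, and higher calls made up 62.1% in place of 50.6%. A minimum absolute log2 fold change of 1 left 0 of the 10 genes in either direction in all 3 comparisons, where edgeR called 6, 10 and 7 without it. With at least 10 counts in every library, 2 genes were higher in SAHA, Morc2a being added. Leaving out 1 library gave from 4 (without SAHA replicate 3) to 7 (without control replicate 1) genes lower in SAHA, and 7 lower in Smarcb1-RE each time. Among the added list counts, library totals gave 0 demethylase and 2 KRAB genes lower in Smarcb1-RE, and without control replicate 1 there were 4 demethylase genes lower in SAHA. The ratio of Trim28 to Suv39h2 in control, 18.7 by merged exon length, was 48.8 by median transcript length.

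The titles repeat the replicate numbers 1 to 3, but same-numbered libraries did not deviate together (correlations from -0.072 to 0.037 over 9 pairs), and nothing else pairs them. With the replicate block, 5 genes were lower and 1 higher in SAHA, 7 and 3 in Smarcb1-RE, and Smarcb1 was at 4.90. Depth was no limit for the 10 genes, whereas genes near the floor, such as Morc1, could not be compared.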
